A study of Mus musculus with 23 samples.

Results

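The comparison set 3 libraries made from 100 mouse T cells each against 3 libraries made from 10000 T cells each. These are 6 of the 23 libraries of a study that lowered the input of EASY-RNAseq, a low-input RNA sequencing method. Members were taken by their labelled cell number alone, and every comparison was made with all 6 libraries and again with 5, leaving out replicate 3 of the 100-cell group. All 6 carry the same labels apart from cell number: C57 mice aged 6 to 18 weeks and spleen T cells, which the design text describes as CD3+. No treatment or genetic change is labelled for either group. RNA was purified, copied with an oligo-dT primer, made double-stranded and cut by the Tn5 transposase, which adds the sequencing adapters. Whether the replicates were separate animals, pools of cells or draws from 1 pool is not labelled, so the p-values measure only the spread between these libraries, which may be technical.

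A resting T cell is small and holds little RNA, much of it coding for ribosomal proteins, translation factors, mitochondrial enzymes and the cytoskeleton. It carries the CD3 and T cell receptor chains and either the CD4 or the CD8 co-receptor. Only a small sample of each transcript enters a library made from few cells, so transcripts present at a few copies per cell can be missed in one library and over-represented in the next.

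Libraries held 1923669, 1849181 and 3760980 counts at 100 cells (replicates 1, 2 and 3; values are given in this order throughout) and 3586180, 3627647 and 3401992 counts at 10000 cells. Across genes, the Pearson correlation of log2(CPM + 1) was 0.845 to 0.856 between 100-cell replicates and 0.965 to 0.967 between 10000-cell replicates, as a description, with genes not independent replicates. CPM are counts per 1000000 counts of the library. The common biological coefficient of variation of edgeR was 0.518 over the 3 100-cell libraries, 0.473 over replicates 1 and 2, and 0.124 over the 10000-cell libraries. All 26 T cell core genes of the marker list were measured and passed the filter on low counts. All 26 also passed in the study's diluted RNA libraries, which are not labelled as T cells, so passing does not check the label. Together the 26 genes took 1.18%, 1.23% and 0.776% of counts at 100 cells and 1.28% to 1.31% at 10000 cells.

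The most abundant gene of these libraries was Gm10800, a predicted gene whose transcript is made of major satellite repeat, the repeat of mouse pericentromeric heterochromatin. It lies on chromosome 2 (GRCm38, 98666547 to 98667301, minus strand), and its 660-base transcript has 35.9% GC. The sequence is shown because copies of it take more counts than any other gene. It gives the first 240 of those bases in GENCODE release M21, 5′ to 3′, with the 9-base word CACGTCCTA in capitals.

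Gm10800: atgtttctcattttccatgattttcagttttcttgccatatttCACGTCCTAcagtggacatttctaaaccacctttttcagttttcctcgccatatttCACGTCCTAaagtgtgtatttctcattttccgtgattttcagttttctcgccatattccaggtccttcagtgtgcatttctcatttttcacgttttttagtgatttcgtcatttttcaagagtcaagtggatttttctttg

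The word occurs 2 times in this stretch and 5 times in the whole transcript. On either strand it was found at least once in 31 of 20986 genes (0.148%) within the first 660 transcript bases. It was present in 8 of the 12 predicted genes of this kind described here, and overlap with other motifs was not searched. Those 12 genes lie on chromosomes 2, 9 and 14, and the 11 besides Gm10800 share 18.3% to 35.1% of their 25-base words with it. Reads from such copies cannot be assigned to one of them with certainty, so the single values are uncertain and the sum is given too. The genes were chosen after their values were seen.

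Gm10800 stood at 84385, 84403 and 47656 CPM at 100 cells and at 36243, 37643 and 33382 CPM at 10000 cells. All 3 100-cell libraries lay above all 3 10000-cell libraries, with replicate 3 much the lowest of its group. The log2 fold change was 1.21 (SE 0.0422) without replicate 3, with an adjusted p of 7.65e-06, and 1.00 with it, with an adjusted p of 0.140 (edgeR's quasi-likelihood test, Benjamini-Hochberg adjustment). Between these inputs, Gm10800 lay at 66819 to 70913 CPM in the 3 500-cell libraries and at 54325 to 55874 CPM in the 3 1000-cell libraries. Both ranges sit between replicates 1 and 2 of the 100-cell group and the 10000-cell libraries, and both are above replicate 3. Summed over the 12 genes, these transcripts took 10.0%, 10.5% and 5.88% of counts at 100 cells and 4.31% to 4.96% at 10000 cells. The T cell libraries of 500 and 1000 cells had 8.38% to 8.73% and 6.67% to 6.89%. In the fit without replicate 3, Gm21738 rose by 0.88 (log2), Gm10801 by 0.86, Gm10717 by 0.82, Gm10718 by 0.96, Gm11168 by 1.21 and Gm10719 by 1.24. Gm10722 did not pass the test, at 0.15 (adjusted p = 0.759).

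**Figure D1:**
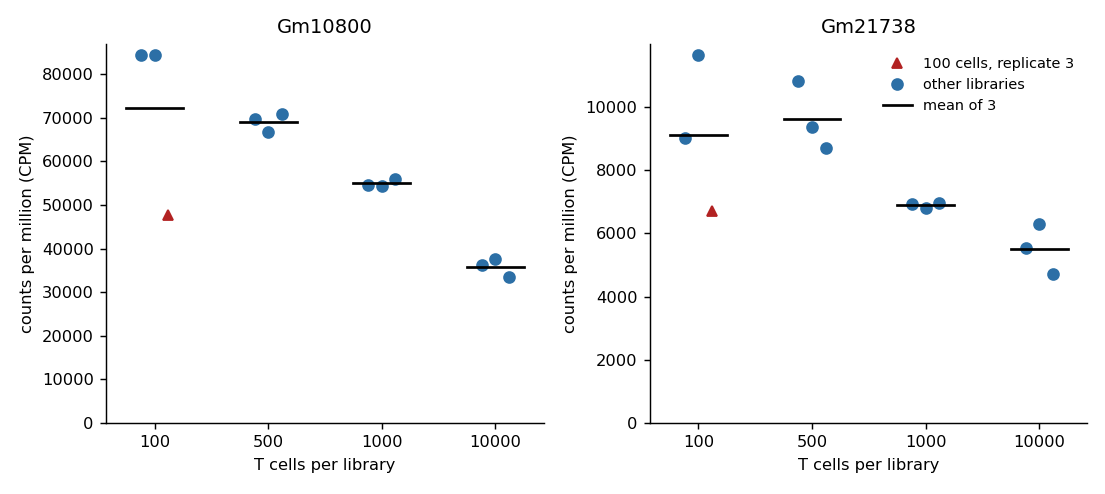
CPM (linear axis from 0) of Gm10800 and Gm21738 in the 12 T cell libraries by number of cells, with 1 point per library, a triangle for 100-cell replicate 3 and bars for group means. Gm10800 lies at 84385 and 84403 CPM in 2 of the 100-cell libraries, at 47656 CPM in replicate 3, and at no more than 37643 CPM in the 10000-cell libraries.

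Replicate 3 of the 100-cell group stood apart through genes of other spleen cells, so its values are given before the tests. In it, 192 genes lay at least 4-fold above both other 100-cell libraries, and 10 lay at least 4-fold below both, counting genes of at least 50 CPM in the highest of the 3. The immunoglobulin heavy chain gene Ighm, of B cells, lay at 689.8, 747 and 8135 CPM at 100 cells and at 784 to 904 CPM at 10000 cells. Cd74, the invariant chain of MHC class II, lay at 136, 181 and 3627 CPM against 289 to 325 CPM. Ms4a1, which codes for CD20 on B cells, lay at 59.8, 72.5 and 768 CPM against 52.1 to 63.2 CPM. For all 3 genes only replicate 3 was far above the 10000-cell libraries, and the other 100-cell libraries were near or below them.

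The same library held genes of myeloid and red cells. The macrophage lysozyme gene Lyz2 lay at 1.04, 8.65 and 452 CPM at 100 cells and at 22.6 to 24.99 CPM at 10000 cells. Slc40a1, the iron exporter of red pulp macrophages, lay at 10.4, 10.8 and 406 CPM against 16.7 to 20.4 CPM. Hbb-bs, a beta globin of red cells, lay at 8.32, 10.8 and 482 CPM against 16.8 to 22.0 CPM. These are again high in replicate 3 alone. The neutrophil granule gene Ngp had 0 counts in replicate 1, 4.33 CPM in replicate 2 and 493 CPM in replicate 3, against 2.21 to 5.29 CPM at 10000 cells. Mki67, a marker of dividing cells, lay at 99.8, 184 and 433 CPM against 138 to 172 CPM. Uty, on the Y chromosome, was at 63.0 CPM in replicate 3 and had 0 counts in the other 5 libraries. Pooled over the 100-cell group it was at least 111-fold higher (against a floor of 3 counts over the 10000-cell group). All 237 counts behind that value came from replicate 3, so it describes that library and not the 100-cell group.

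By whole lists, the 22 B cell genes took 0.149%, 0.176% and 2.11% of counts at 100 cells and 0.205% to 0.228% at 10000 cells. The mean difference was 0.598 percentage points with replicate 3 (exact permutation p = 1, two-sided) and -0.0517 without it (exact permutation p = 0.1, the smallest that 2 against 3 libraries allow). Neutrophil genes took 0.00468%, 0.00627% and 0.237% against 0.00651% to 0.00823%. Erythroid genes took 0.00988%, 0.0103% and 0.183% against 0.0159% to 0.0183%, and red pulp macrophage genes 0.00447%, 0.00525% and 0.131% against 0.00910% to 0.0109%. The Y-linked list summed to 0%, 0.000433% and 0.0184%, against 0% to 0.000251%, and 0 of its 4 genes passed the filter on low counts. Each of these 5 lists was highest in replicate 3, and its T cell core share was the lowest of the 6 libraries. In bulk libraries, fewer cells of a type and less RNA per cell cannot be told apart, and the part of these transcripts in the results below was not tested beyond the fits with and without that library.

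Genes low in replicate 3 were of mixed kinds. Ice2, a subunit of the little elongation complex, lay at 50.4, 89.2 and 9.57 CPM at 100 cells and at 53.2 to 62.5 CPM at 10000 cells. Ephb6, an ephrin receptor of T cells, lay at 47.8, 99.0 and 11.7 CPM against 54.4 to 61.2 CPM. For both, replicate 3 lay below all 5 other libraries.

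When all 6 libraries were fitted, 0 of 14099 genes (0%) passed edgeR's quasi-likelihood test after Benjamini-Hochberg adjustment at a threshold of 0.05, and 1686 (12%) had an unadjusted p under 0.05. DESeq2 called 337 genes, 151 higher and 186 lower at 100 cells, and voomWithQualityWeights called 209. Without replicate 3, edgeR called 357 of 15159 genes (2.36%), of which 85 (0.561%) were higher and 272 (1.79%) lower at 100 cells, and 3233 (21.3%) had an unadjusted p under 0.05. The number of calls depended on the libraries in the fit. Leaving out any 1 of the 10000-cell libraries left 1 call, Gm10800 each time, and the pairs of 100-cell libraries that include replicate 3 gave 0 calls. Leaving out 100-cell replicate 1 or 2 gave 5201 and 5101 calls, which held all 357 genes but rest on a lone 100-cell library assumed to vary like the others. Fold changes of the called genes moved little when a 10000-cell library was left out. The 85 genes had a median log2 fold change of 1.44 in the fit of 5 libraries and 1.47 to 1.51 in those fits. The 272 genes had -0.97 and -0.92 to -0.97. Both sets were chosen by the fit of 5 libraries, so this is not independent support. Adding replicate 3 moved some called genes far, such as Pld4 from -3.24 to 0.99, and others little, such as Eef2 from -0.46 to -0.47. The groups did not overlap for 1233 genes above (8.75%) and 1711 below (12.1%) with 6 libraries, and for 2703 above (17.8%) and 3372 below (22.2%) with 5. Over every gene tested, log2 fold changes had a median of 0.04 with 6 libraries and -0.02 with 5.

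**Figure D2:**
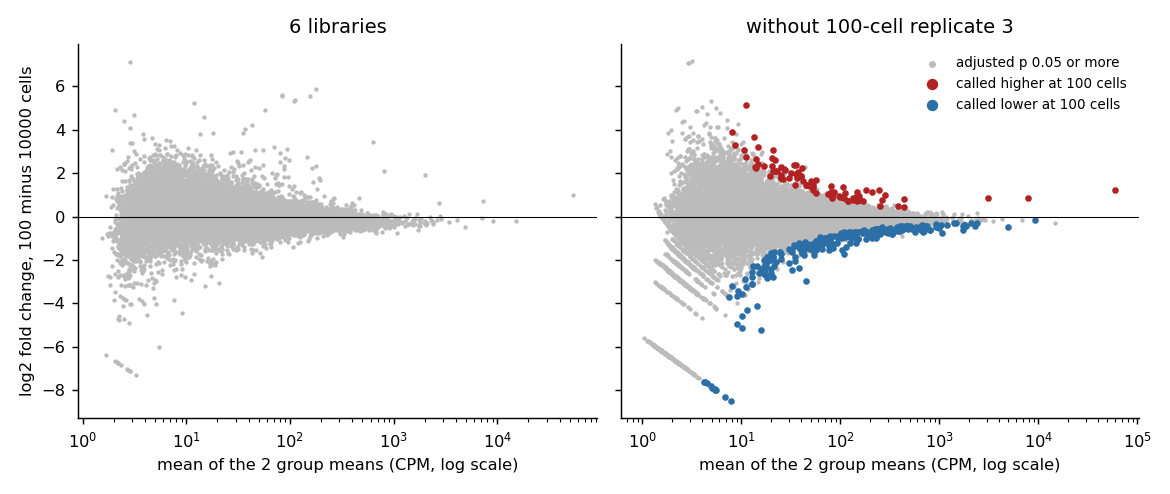
Log2 fold change (100 minus 10000 cells) against the mean of both group means (CPM, log axis), 1 point per gene tested, with all 6 libraries on the left and without 100-cell replicate 3 on the right. No gene is called on the left; on the right 85 genes are called higher and 272 lower, and the point farthest to the right among those called is Gm10800.

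The genes of smallest unadjusted p over the 6 libraries, 6 in each direction, were taken next. Choosing by p favours genes whose replicates agree. Their adjusted p was 0.0710 to 0.140, so none passed, and all 12 passed without replicate 3. On the lower side stood Eef2, the elongation factor that moves the ribosome along the message, at 4113, 4288 and 3932 CPM against 5561 to 5817 CPM at 10000 cells. The log2 fold change was -0.47 with 6 libraries and -0.46 (SE 0.0375, adjusted p = 0.00443) with 5. Flna, the actin crosslinker filamin A, lay at 1377, 1373 and 1270 CPM against 2017 to 2143 CPM (-0.62 with 5 libraries, SE 0.0518). Myh9, the heavy chain of nonmuscle myosin, lay at 730, 887 and 797 CPM against 1327 to 1356 CPM (-0.76, SE 0.0848). In these 3 genes every 100-cell library lay below every 10000-cell library. The same held for Il17ra, a subunit of the interleukin-17 receptor, at 256, 239 and 229 CPM against 419 to 431 CPM. Cad, the first enzyme of pyrimidine synthesis, lay at 55.1, 54.1 and 65.7 CPM against 130 to 184 CPM. Ttll4, a tubulin glutamylase, lay at 25.5, 24.3 and 20.2 CPM against 82.0 to 86.6 CPM, the largest of the 6 falls at -1.79 (5 libraries, SE 0.219).

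On the higher side, Itgb1, the integrin beta-1 chain used in adhesion, lay at 323, 343 and 338 CPM at 100 cells and at 180 to 209 CPM at 10000 cells (0.78 with 5 libraries, SE 0.114). Rabgap1l, a Rab GTPase-activating protein, lay at 177, 212 and 221 CPM against 109 to 111 CPM. Qk, the RNA-binding protein quaking, lay at 148, 160 and 163 CPM against 53.5 to 81.3 CPM. Replicate 3 was inside or just above the range of the other 100-cell libraries for these genes. Ppp1r16b, a regulatory subunit of protein phosphatase 1, lay at 154, 154 and 165 CPM against 46.9 to 72.9 CPM. Asb2, a substrate adaptor of a ubiquitin ligase, lay at 78.0, 42.2 and 57.7 CPM against 10.0 to 12.4 CPM, the largest of the 6 rises at 2.36 (5 libraries, SE 0.345). Stard9, a kinesin, lay at 72.8, 48.1 and 43.3 CPM against 10.6 to 16.5 CPM.

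**Figure D3:**
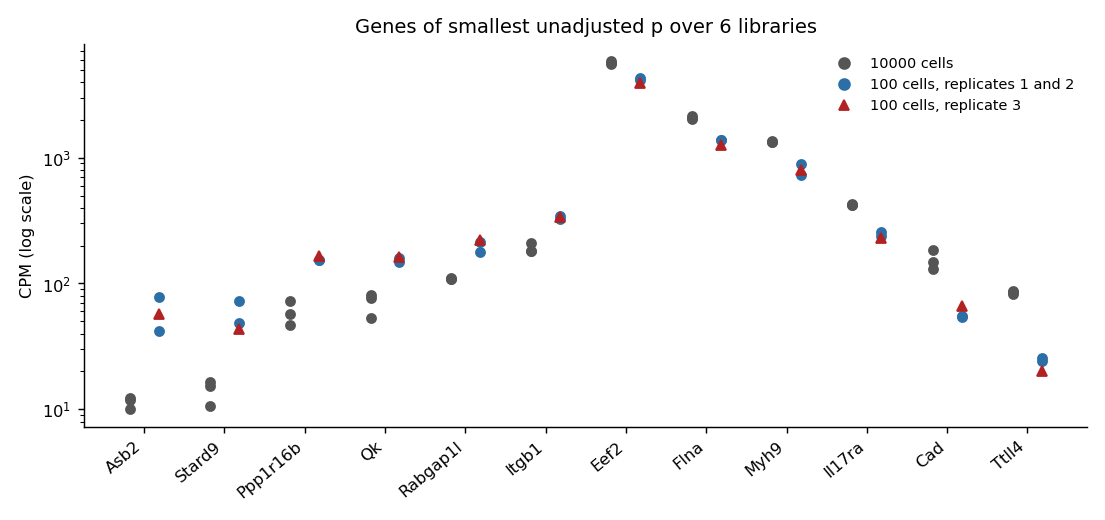
CPM (log axis) of the 12 genes of smallest unadjusted p over 6 libraries, with 10000-cell libraries in grey, 100-cell replicates 1 and 2 in blue and replicate 3 as a triangle. For each gene the 100-cell points lie wholly above or wholly below the 10000-cell points, from Asb2 at 42.2 to 78.0 against 10.0 to 12.4 CPM to Ttll4 at 20.2 to 25.5 against 82.0 to 86.6 CPM.

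The most abundant genes called lower without replicate 3 included some of translation. Eef1a1, the elongation factor that brings aminoacyl-tRNA, lay at 9021, 8680 and 7580 CPM against 9661 to 9906 CPM (-0.17, SE 0.0293). Rplp0, of the ribosomal stalk, lay at 2305, 2069 and 1897 CPM against 2527 to 2780 CPM (-0.31, SE 0.0614). Rack1, a scaffold on the small ribosomal subunit, lay at 1595, 1635 and 1387 CPM against 1967 to 2126 CPM (-0.37, SE 0.0529). Replicate 3, which these fits did not use, was below the 10000-cell range for all 3 genes. That library also held genes of other spleen cells, so its low values are not support for a change with cell number. Of 22 translation factors tested, 4 fell (Eef1a1, Eef2, Eif3b and Eif4g1), 0 rose, and the median was -0.18. Of 79 cytosolic ribosomal protein genes tested, 5 fell, among them Rplp0, Rplp1, Rpl9 and Rps15, and 0 rose, with a median of -0.20 and 68 below 0, against 51.6% of all genes tested below 0. The list took 4.49%, 4.44% and 3.78% of counts at 100 cells and 4.91% to 5.11% at 10000 cells. A comparison with all genes has to allow for abundance: 0.164% of genes at 1 to 2 CPM were called and 7.83% of those at 100 CPM or more, by mean CPM in the 500- and 1000-cell libraries. Medians depend on abundance too. Genes of at least 20 CPM at 10000 cells, binned by transcript length, had medians of -0.10 to -0.18 in the same fit. The list median of -0.20 is thus nearer to theirs than to that of all genes, and lists were not compared at matched abundance. The ribosomal protein genes named here were above 100 CPM in each of the 6 libraries.

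For the 3 mitochondrially encoded genes called without it, replicate 3 lay nearer to the 10000-cell libraries than replicates 1 and 2 did, or above them. The complex III gene mt-Cytb lay at 2089, 1909 and 2453 CPM against 2529 to 2650 CPM (-0.41 with 5 libraries, -0.29 with 6). The complex I gene mt-Nd5 lay at 1650, 1550 and 2025 CPM against 2115 to 2200 CPM (-0.46 and -0.31), and mt-Nd4 at 1305, 1357 and 1871 CPM against 1602 to 1618 CPM (-0.31 and -0.10). Replicate 3 lay just below the 10000-cell libraries for mt-Cytb and mt-Nd5 and above them for mt-Nd4. Of 12 mitochondrially encoded genes tested, these 3 fell without replicate 3 and 0 rose, with a median of -0.26 (-0.08 with 6 libraries), and mt-Co1 did not pass, at -0.17 (adjusted p = 0.0773). Of 78 nuclear-encoded oxidative phosphorylation genes, 3 fell (Atp5b, Atp5g3 and Atp5mpl, which code for subunits of ATP synthase) and 0 rose, with a median of -0.32. Beside these counts and those of the lists below, 1.79% of all genes tested fell and 0.561% rose without replicate 3. Calls were more frequent among abundant genes, so such small counts do not set a list apart. Atp5b lay at 583, 606 and 637 CPM against 739 to 768 CPM (-0.37, SE 0.0715). Across the settings run without replicate 3 it was at -0.43 to -0.28.

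Other abundant genes that fell were Macf1, which links microtubules to actin (-0.45), Arhgap45, a GTPase-activating protein (-0.30), and the chaperone Hspa8 (-0.40, the 1 call among 9 heat shock genes, list median -0.16). Of 20 glycolysis genes (median -0.20), Aldoa (-0.76) fell and 0 rose. Of 32 splicing factors (median -0.11), Prpf8 (-0.53) fell and 0 rose. Among 18 housekeeping genes (median -0.11) the 2 that fell were Rplp0 and Eef1a1, and 0 rose; Actb and B2m, often used as references, did not pass, at -0.10 and 0.10. In the cell cycle list of 25 genes (median 0.01), Top2a, the topoisomerase of dividing cells, was the 1 call, at 54.6 and 48.7 CPM in replicates 1 and 2 against 102 to 107 CPM. Replicate 3 had 205 CPM of Top2a, so that the log2 fold change went from -1.05 without it to -0.02 with it. No gene of the proteasome (37 tested, median -0.03) or apoptosis (19 tested, median -0.08) list passed by edgeR's adjusted p in either fit.

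In the fit without replicate 3, where 1.79% of all genes fell, 1 of 26 T cell core genes did: Thy1, a surface marker of mouse T cells, at 514, 629 and 366 CPM against 727 to 798 CPM (-0.47, SE 0.0987). The list's median was -0.15, with 21 genes below 0, and -0.32 with 6 libraries, with 25 below 0. Tcf7, a transcription factor of T cells, lay at 1508, 1532 and 946 CPM against 1703 to 1735 CPM (-0.21, adjusted p = 0.0688). Lck, the kinase bound to the co-receptors, lay at 997, 945 and 616 CPM against 1067 to 1110 CPM (-0.20, adjusted p = 0.113). Trbc2, a T cell receptor constant gene, lay at 816, 789 and 441 CPM against 804 to 886 CPM (-0.09, adjusted p = 0.529). In these 4 genes replicate 3 was the lowest of the 6 libraries, beside its lower share of T cell core genes.

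For the co-receptors, Cd4 lay at 396, 394 and 302 CPM against 549 to 592 CPM (-0.58, SE 0.0817) and Cd8b1 at 330, 301 and 241 CPM against 405 to 450 CPM (-0.48, SE 0.0963). Both genes fell without replicate 3, and Cd8a did not pass, at -0.41 (adjusted p = 0.147). Of 12 CD4 helper and regulatory genes (median -0.26), Il2ra, the interleukin-2 receptor alpha chain, also fell, at 11.96, 12.4 and 13.6 CPM against 34.7 to 40.5 CPM (-1.62, SE 0.323). Icos, a costimulatory receptor, was the 1 gene of that list that rose, at 190.3, 213 and 139 CPM against 88.9 to 94.0 CPM (1.12, SE 0.138). Of 18 cytotoxic T and NK cell genes (median -0.39), Cd8b1 and Eomes (-1.46), a transcription factor of memory and killer cells, fell and 0 rose. Of 13 naive T cell genes, 3 fell, among them Igfbp4 (-0.79) and the transcription factor Ets1 (-0.32), and 0 rose, with a list median of -0.24. Igfbp4, which binds insulin-like growth factors, lay at 224, 275 and 170 CPM against 409 to 445 CPM, and all 3 100-cell libraries were below the 10000-cell libraries. The chromatin organizer Satb1 (-0.06), the transcription factor Klf2 (-0.04) and the cathepsin gene Ctsw (-0.06) did not pass.

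On the lists of other spleen cells, the only genes called without replicate 3 were Cd74, Pax5 and H2-Ab1, all lower at 100 cells. Cebpa, a myeloid gene on none of these lists, was called higher and is given below. Of 22 B cell genes, Cd74 (-0.97) and Pax5 (-2.73) fell, 0 rose, and the median was -0.45, against 1.74 with 6 libraries. Pax5, the transcription factor of B cell identity, lay at 3.12 and 7.03 CPM against 26.8 to 41.6 CPM, with 326 CPM in replicate 3. Of 17 MHC class II and dendritic cell genes, H2-Ab1 (-1.54) and Cd74 fell and 0 rose, with medians of -0.67 without and 1.19 with replicate 3. No gene passed among 18 macrophage and monocyte, 12 red pulp macrophage, 14 neutrophil, 14 erythroid, 11 plasma cell, 5 platelet and 12 stroma and endothelium genes. Medians without replicate 3 were -0.78, -1.33, -0.63, -0.84, 0.31, -0.08 and -0.45 in that order, and 0.95, 2.16, 2.13, 2.01, 1.88, 0.52 and -0.19 with it. The sign of the median thus turned with 1 library in 7 of these 9 lists, and stayed the same in the plasma cell and stroma lists.

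Abundant genes higher without replicate 3 included Zfp638, a zinc finger protein bound to RNA and DNA, at 392.5, 376 and 261 CPM against 182 to 196 CPM (1.01, SE 0.0998). Nfkbiz, a nuclear regulator of NF-kB, lay at 254, 322 and 105 CPM against 123 to 136 CPM (1.11, SE 0.137). Emb, a membrane glycoprotein, lay at 453, 442 and 251 CPM against 306 to 320 CPM (0.48, SE 0.0865). Replicate 3 was above the 10000-cell range for Zfp638 and below it for Nfkbiz and Emb. Esco1, a cohesin acetyltransferase, lay at 195, 234 and 156 CPM against 119 to 134 CPM (0.73). The RNA-binding protein Tia1 lay at 232, 172 and 168 CPM against 114 to 121 CPM (0.75), and Zbtb11, a zinc finger regulator, at 168, 213 and 179 CPM against 92.3 to 103 CPM (0.92). All 3 100-cell libraries lay above the 10000-cell libraries for these 3 genes. Tmem123 (0.49), Arglu1 (0.71) and the phosphatase gene Inpp4b (0.43) were called as well.

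The largest called changes fell on genes of low level, and replicate 3 often lay away from its group. Col9a3, a cartilage collagen chain, lay at 32.2, 43.8 and 5.58 CPM against 4.96 to 8.09 CPM (2.62 without replicate 3). Cebpa, a transcription factor of myeloid cells, lay at 30.1, 20.0 and 1.60 CPM against 3.31 to 5.86 CPM (2.43). Elp6, a subunit of Elongator, lay at 53.0, 62.7 and 22.9 CPM against 9.20 to 12.4 CPM (2.38). Of these 3 genes, Elp6 alone had all 100-cell libraries above the 10000-cell libraries. Among the falls, Nop2, a nucleolar RNA methyltransferase, lay at 7.80, 13.0 and 51.3 CPM against 69.2 to 86.6 CPM (-2.95). Ercc8, of transcription-coupled repair, had 0 counts in replicate 1, 2.16 CPM in replicate 2 and 15.9 CPM in replicate 3 against 19.8 to 23.7 CPM. Pld4, of B cells and dendritic cells, lay at 1.04, 3.24 and 113 CPM against 18.7 to 22.3 CPM (-3.24). Replicate 3 was nearer to the 10000-cell libraries for Nop2 and Ercc8, and above them for Pld4.

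Receptor and histone genes, which are mostly silent in T cells or give messages without poly(A) tails, had medians above 0. Of 1420 olfactory and vomeronasal receptor genes in the table, 645 passed the filter without replicate 3, and 1 rose (Olfr943, 2.22) and 0 fell, with a median of 0.54. The list took 0.482%, 0.508% and 0.347% of counts at 100 cells and 0.320% to 0.338% at 10000 cells, so the groups did not overlap. Of 67 replication-dependent histone genes, 17 passed the filter and 0 passed the test in either direction by edgeR, with a median of 0.97. A low gene passes the filter more easily where it is high, so neither median describes its whole list. Of 20 immediate early genes (median -0.05) Egr2 (-2.004) fell, and of 22 interferon response genes (median -0.32) Ifit1 (-1.37) fell and Mx1 (1.69) rose.

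Detection was counted with each library thinned to 1849181 counts, the total of 100-cell replicate 2. Thinning drew single counts, although both mates of a pair may have been counted. If they were, a library cut further keeps more genes than thinning by pairs would leave. The 10000-cell libraries and replicate 3 were cut most, so depth may not be fully matched, and the size of this was not tested. At least 1 count was found for 16480, 16279 and 17524 genes at 100 cells and for 19445, 19399 and 19304 genes at 10000 cells. The difference of means was -2622 genes with replicate 3 and -3003 without it (exact permutation p = 0.1 in both, two-sided, the smallest these group sizes allow). At a limit of 10 counts the direction turned: 12026, 12036 and 12032 genes reached it at 100 cells and 11247, 11200 and 11208 at 10000 cells (exact permutation p = 0.1). The missing genes were of low level in libraries outside the comparison. Of 2628 genes at 1 to 2 CPM in the 500- and 1000-cell libraries, 46.6%, 46.3% and 56.2% were found at 100 cells and 76.1% to 78.5% at 10000 cells. At 5 to 10 CPM the shares were 88.2%, 87.6% and 94.0% against 99.1% to 99.3%. At 20 CPM or more, at least 99.6% were found in each of the 6 libraries. Replicate 3 found more genes than its group at each level under 20 CPM. It is also the library with genes of other spleen cells, and it was thinned from 3760980 counts. A gene not found at 100 cells is not shown to be absent from those cells.

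The gap between replicates did not close at high level. At 100 CPM or more, the median absolute difference of log2(CPM + 1) between replicates was 0.263 to 0.333 at 100 cells and 0.0986 to 0.101 at 10000 cells. At 5 to 10 CPM it was 1.11 to 1.26 against 0.508 to 0.538.

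**Figure D4:**
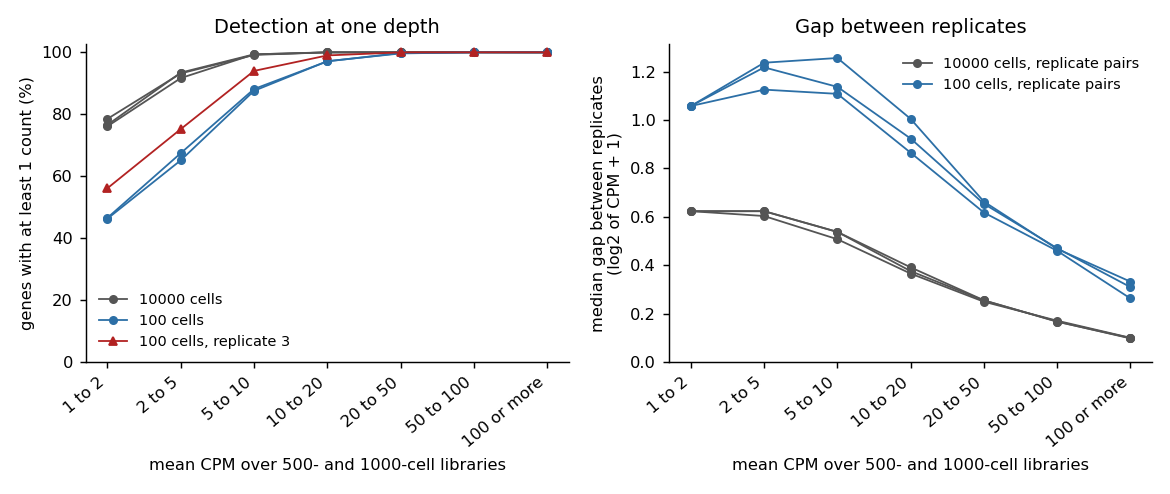
Left, percent of genes found in libraries thinned to 1849181 counts; right, median absolute gap of log2(CPM + 1) between pairs of replicates; both by mean CPM in the 500- and 1000-cell libraries. Lines are libraries on the left and pairs on the right; the 100-cell lines start at 46.3% to 56.2% found against 76.1% to 78.5%, and their gaps stay above those of 10000 cells at every level.

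Base composition moved with the change. Among 7104 genes of at least 20 CPM at 10000 cells, the Spearman correlation across genes of log2 fold change with transcript GC content was -0.180 with 5 libraries and -0.262 with 6, as a description of genes that share libraries. The median change went from 0.01 in the lowest 10% of genes by GC to -0.25 in the highest 10% with 5 libraries, and from 0.12 to -0.23 with 6. Genes called higher had a median GC of 41.2% (46 genes), genes called lower 52.6% (253 genes), and all 7104 genes 49.7%. In the lowest 10% 24 genes were called higher and 17 lower, and in the highest 0 and 38. The 24, and the 46 above, include Gm10800, Gm21738, Gm10801, Gm10717, Gm10718, Gm11168 and Gm10719, at 34.3% to 36.0% GC. These share sequence, so they are not independent genes. Transcript length showed little of this, with correlations of 0.0106 and 0.0476. The part of base composition in the single calls was not tested.

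**Figure D5:**
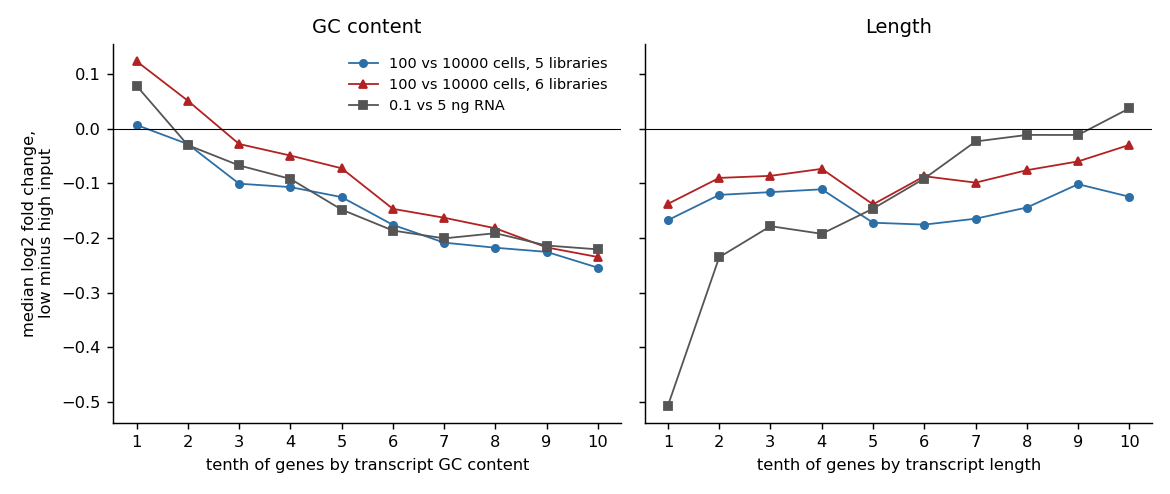
Median log2 fold change, low minus high input, in 10 equal bins of genes by GC content (left) and transcript length (right) of genes of at least 20 CPM at the high input, for 100 against 10000 cells with 5 and 6 libraries and for 0.1 against 5 ng RNA. By GC the medians fall from 0.01, 0.12 and 0.08 to -0.25, -0.23 and -0.22; by length only the RNA line changes much.

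The diluted RNA of the same study gives a second change of input in libraries that share none with the T cells: 2 of 0.1 ng and 3 of 5 ng. The design text calls it spleen RNA, while the characteristics name a macrophage line. There edgeR called 1572 of 13982 genes (11.2%), 656 higher (4.69%) and 916 lower (6.55%) at 0.1 ng, and leaving out a 5 ng library left 0 or 1 calls. Of the 85 genes called higher at 100 cells without replicate 3, 77 were tested in RNA, where 11 were called higher and 3 lower, with a median of 0.20. Of the 272 called lower, 271 were tested, 41 lower and 8 higher, with a median of -0.20. Of all 12736 genes tested in both, 4.66% were higher and 6.96% lower, with a median of -0.07. These shares were not compared at matched abundance. The 85 also include Gm10800 and genes that share sequence with it, which are not independent. Gm10800 rose by 2.57 (log2) in the RNA, Eef2 fell by 0.48, Eef1a1 by 0.55, Flna by 0.45 and Myh9 by 0.58. Of the mitochondrial genes, mt-Cytb fell by 0.33 there and mt-Nd5 rose by 0.32. Cd4 (-0.37), Icos (0.89), Itgb1 (0.29) and Asb2 (-0.26) did not pass (adjusted p 0.0538 to 0.342). GC content went with the change in RNA as well (Spearman correlation -0.133), and transcript length did so more than in the cells (0.222).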

How the data were processed

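The authors deposited whole-number counts per gene symbol, not normalized. Per the submitters' processing notes, HISAT2 2.1.0, featureCounts (no version) and genome build mm8 were used; how strand and read pairs were handled is not given in the sources used here. In each library 59.5% to 65.5% of nonzero counts were even, so both mates of a pair may have been counted, and counts are not independent molecules. Floors cover counting error only.

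Groups were compared in R 4.3.3 with edgeR 4.0.16 (TMM factors, filterByExpr, quasi-likelihood test, Benjamini-Hochberg adjustment over all genes tested, threshold 0.05), each fit holding only the libraries compared. SEs come from these fits. CPM use library totals. Log2 fold changes are 100 minus 10000 cells; those with no fit named are from the 5-library fit. Genes at 1849181 thinned counts and list percents were compared by exact permutation tests. GC content, length and coordinates come from GENCODE release M21 (GRCm38), not the authors' build.

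The comparison, the 29 gene lists and the genes named were chosen with earlier results of these data known. The rule for named genes took, from the 5-library fit, the 12 most abundant genes called in each direction without overlap and the 8 of largest change with at least 20 CPM; from the 6-library fit, the 6 in each direction of smallest unadjusted p; genes of replicate 3 at least 4-fold from its group; and up to 4 members per list. Names outside it (the Gm10800 group, Thy1, Il2ra, Igfbp4, Eomes, Pax5, Egr2, Ifit1, Mx1, Top2a, Aldoa, Eif3b, Eif4g1, Prpf8, Rpl9, Rplp1, Rps15, Atp5g3, Atp5mpl and Olfr943) were chosen after their values were seen. Some genes that the rule or the lists name are not reported here.

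Alternatives were DESeq2 1.42.0, DESeq2 size factors or library totals in edgeR, other filters, a replicate block, thinning, limma 3.58.1 voomWithQualityWeights, all T cell groups in 1 fit, other detection limits and leaving out each replicate. The scripts were tested on simulated data.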

Additional observations from a re-analysis of the deposited data

How the results depend on the processing

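With 6 libraries, edgeR's 0 calls became 337 with DESeq2, 7 with no filter on low counts, 209 with voomWithQualityWeights, 391 with every T cell group fitted together and 2 with the replicate block. Leaving out 1 library gave 0 to 357 calls, the latter without 100-cell replicate 3. With 5 libraries, the 357 calls became 920 with DESeq2 (334 higher, 586 lower) and 1125 with every T cell group fitted together. Leaving out 1 library gave 1 to 5201 calls; the 5201 and 5101 calls rest on a lone 100-cell library assumed to vary like the others. Calls numbered 261 with DESeq2 size factors (83 higher, 178 lower), 280 with library totals (84 and 196), 346 with voomWithQualityWeights (174 and 172) and 535 with a 10 CPM filter (249 and 286). Residual correlations were -0.011 to 0.0128 for same-numbered libraries and -0.0259 to 0.017 for the others. The wide spread between 100-cell replicates may hide a pairing, so whether replicate numbers pair the libraries is not shown. The replicate block gave 249 calls (37 and 212), of which 32 and 141 were among the 85 and 272.

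In RNA, the 1572 calls became 2946 with DESeq2, 392 with the replicate block, 592 with voomWithQualityWeights and 3395 with all RNA groups in 1 fit, and 0 to 8075 when 1 library was left out.

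The detection difference of -2622 genes (-3003 without replicate 3) was -1664 (-1844) at 2 counts, -279 (-420.2; exact permutation p = 0.3 and 0.1) at 5 counts and 813 (812.7) at 10 counts, so the sign turned; without thinning it was -3065 (-3591). The B cell difference ran from -0.0517 to 0.930 percentage points when 1 of 6 libraries was left out, and was -0.0311 without immunoglobulin constant genes with 5 libraries.

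Over the genes examined and the settings run with 5 libraries, 870 gene values kept direction and side of the threshold, 330 lost the call, 15 gained it and 3 reversed; with 6 libraries, 126 kept both and 54 gained the call. Gm10722 ran from -0.20 to 0.38 (log2) when 1 library was left out, below 0 without 100-cell replicate 2 and, at -0.03, without 10000-cell replicate 1, and Trbc2 reversed to 0.00421 with the 10 CPM filter. Where the cause of a move is not shown by the setting itself, the cause was not tested. Precision is limited by 2 or 3 libraries a group and by totals of 1849181 counts upward.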
